A study of Mus musculus with 64 samples.

Results

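The interferon-activated gene 200 family is a cluster of related mouse genes whose products bear pyrin or HIN domains, and 9 of its genes were followed here in retinal microglia: *Ifi203*, *Ifi204*, *Ifi205*, *Ifi207*, *Ifi209*, *Ifi211*, *Ifi213*, *Mndal* and *Aim2*. They were taken by symbol from the 25239 genes of the batch-corrected count table, without regard to their values, and all 9 were found. The table holds 4 more genes of the family, *Ifi202b*, *Ifi206*, *Ifi208* and *Ifi214*, which are described after the members. The animals were male and female Cx3cr1CreER:R26-tdTomato heterozygotes on a C57BL/6J background, aged 3, 9 or 18 months. In these mice tamoxifen eye drops, given to naive and injected animals alike, switch on the red fluorescent protein tdTomato in cells that use the fractalkine receptor gene *Cx3cr1*, and at least 4 weeks passed before use so that long-lived microglia kept the label. Naive retinas had no injection. The others were collected at day 12 or day 28 after intravitreal (IVT) injection of AAV2 at 1e10 genome copies per eye, a vector with a CMV promoter, a WPRE element and no transgene, and with an io2 sequence that inhibits TLR9. No library of a vehicle-injected eye was analysed here, so injection and vector cannot be told apart. The study asked how age and sex shape the ocular response to AAV. Each library came from 600 tdTomato-high, DRAQ7-negative cells of 1 retina, the other eye of the animal being used for other assays, and 62 libraries were used: 19 naive, 22 from day 12 and 21 from day 28. The 18 groups of age, sex and day held 2 to 4 libraries each, 9-month-old naive males being the group of 2.

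The family encodes proteins built from a pyrin domain, which binds other pyrin domains, a HIN domain, which binds double-stranded DNA, or both. Aim2 (absent in melanoma 2) senses DNA in the cytosol and assembles an inflammasome through the adaptor ASC, the product of *Pycard*, which activates caspase-1. Ifi204 is a mouse relative of human IFI16 and has been linked to DNA sensing through STING, whereas many other members act mainly in the nucleus and are less well described. Most of the genes are known as targets of interferons, and macrophage-lineage cells such as microglia express them.

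All 9 members lie on chromosome 1 between positions 173350879 and 174031810 of GRCm38 (the mm10 build to which the reads were aligned), a span of 681 kb. Promoter sequences from RefSeq (GRCm38.p6, from 250 bases before to 50 bases after a start site) were matched by symbol for 8 of the 9, in 10 windows, and *Ifi204* had no entry. They are shown because 8 of the members varied together across these libraries and *Aim2* less so. The core of the interferon-stimulated response element, searched on both strands as GAAANNGAA, was found in 6 of the 8 members with a sequence and in 8.56% of 32851 mouse promoters of the same length. The 100 bases before the start site of *Ifi211* (chr1:173913047-173913146, minus strand), *Ifi213* (chr1:173599273-173599372, minus strand), *Ifi207* (chr1:173741810-173741909, minus strand) and *Mndal* (chr1:173880188-173880287, minus strand), the 100 bases before the second start site of *Ifi203* (chr1:173942493-173942592, minus strand) and bases -150 to -51 of *Ifi205* (chr1:174031806-174031905, minus strand) hold a match, given in capitals.
Ifi211: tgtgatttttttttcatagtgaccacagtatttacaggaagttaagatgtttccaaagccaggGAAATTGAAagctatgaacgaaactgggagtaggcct
Ifi213: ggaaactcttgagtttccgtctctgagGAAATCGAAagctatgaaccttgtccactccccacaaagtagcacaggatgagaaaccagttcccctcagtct
Ifi207: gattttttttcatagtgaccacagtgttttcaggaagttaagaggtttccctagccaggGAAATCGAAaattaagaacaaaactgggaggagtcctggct
Ifi205: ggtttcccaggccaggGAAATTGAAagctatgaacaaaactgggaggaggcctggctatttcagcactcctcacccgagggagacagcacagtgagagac
Mndal: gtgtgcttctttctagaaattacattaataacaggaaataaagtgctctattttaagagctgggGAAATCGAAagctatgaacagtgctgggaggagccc
Ifi203: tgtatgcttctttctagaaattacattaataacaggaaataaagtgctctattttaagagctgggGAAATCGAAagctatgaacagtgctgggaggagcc
The windows of *Ifi209* and *Aim2* held no match. Their 100 bases before the start site (chr1:173630759-173630858 and chr1:173420504-173420603, both plus strand) are given for comparison.
Ifi209: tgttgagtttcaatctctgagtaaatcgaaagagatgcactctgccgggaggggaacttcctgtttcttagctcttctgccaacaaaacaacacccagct
Aim2: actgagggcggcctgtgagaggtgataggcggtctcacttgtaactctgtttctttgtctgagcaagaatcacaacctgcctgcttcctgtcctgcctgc
The first base of the match lay 37 bases before the start site in *Ifi211*, 73 in *Ifi213*, 41 in *Ifi207* and 134 in *Ifi205*. It lay 36 bases before it in *Mndal* and 35 bases before the second site of *Ifi203*. *Ifi205* had a further match on the other strand from base 25 after its start site, and the second start site of *Mndal* one on the other strand 53 bases before it. The spaced STAT site TTCNNNGAA was found in 8.3% of all promoters and in none of the 8 members. A match is a run of letters and not a shown binding site.

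The members resemble each other in sequence, and reads shared between copies may have been counted for either or dropped. Of the 75-base windows of annotated *Ifi211* transcripts, 63.6% were also found in another gene, 40.6% in *Ifi205* and 23% in *Ifi204*. The share was 23.1% for *Ifi209* (all with *Ifi214*), 16.6% for *Ifi205*, 13.2% for *Ifi204*, 11.1% for *Mndal*, 8.07% for *Ifi213*, 5.71% for *Ifi203* and 2.8% for *Ifi207*. *Aim2* shared none. The annotated *Mndal* locus also overlaps *Ifi211* and *Ifi203*. Values of *Ifi211* in particular are therefore uncertain as to the copy.

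Depth was 1468478 to 9836173 counts per library (median 4188992), so that 3 counts, taken as the smallest level a library can show, correspond to 0.305 to 2.04 CPM, the count scaled to a common library total. This floor covers counting error only. Libraries were collected on 2 days (27 and 35 libraries), which the authors removed from the counts as batches. Microglia markers were present in every library, all 9 of them detected, with sums of 30060 to 54852 CPM in naive, 8729 to 33945 CPM in day 12 and 16799 to 42777 CPM in day 28 libraries. Of the day 12 libraries, 3 stood above 25000 CPM in this sum, replicate 2 of 9-month-old males and replicates 1 and 2 of 18-month-old females, all of collection day 1. The library labelled day 28 by its title and day 12 by another label (18-month-old male replicate 4) was taken as day 28 and had the highest day 28 sum.

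In naive microglia *Ifi204* and *Aim2* were the best represented members per length of transcript. Divided by the kilobases of annotated exons, the median level over 19 naive libraries was 28.9 CPM per kb for *Ifi204* and 22.7 for *Aim2*. *Ifi209* (14.0), *Ifi207* (13.3), *Ifi211* (5.03), *Mndal* (4.16) and *Ifi213* (3.55) followed, and *Ifi203* (1.03) and *Ifi205* (0.492) were lowest. The naive libraries of each member overlapped in range with those of its neighbours in this order. At day 12 the order was *Ifi204* (131), *Ifi207* (70.8), *Ifi211* (53.4), *Ifi209* (51.6), *Ifi213* (31.5), *Aim2* (23.3), *Ifi205* (16.6), *Mndal* (15.4) and *Ifi203* (3.62), again as median CPM per kb.

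**Figure D1:**
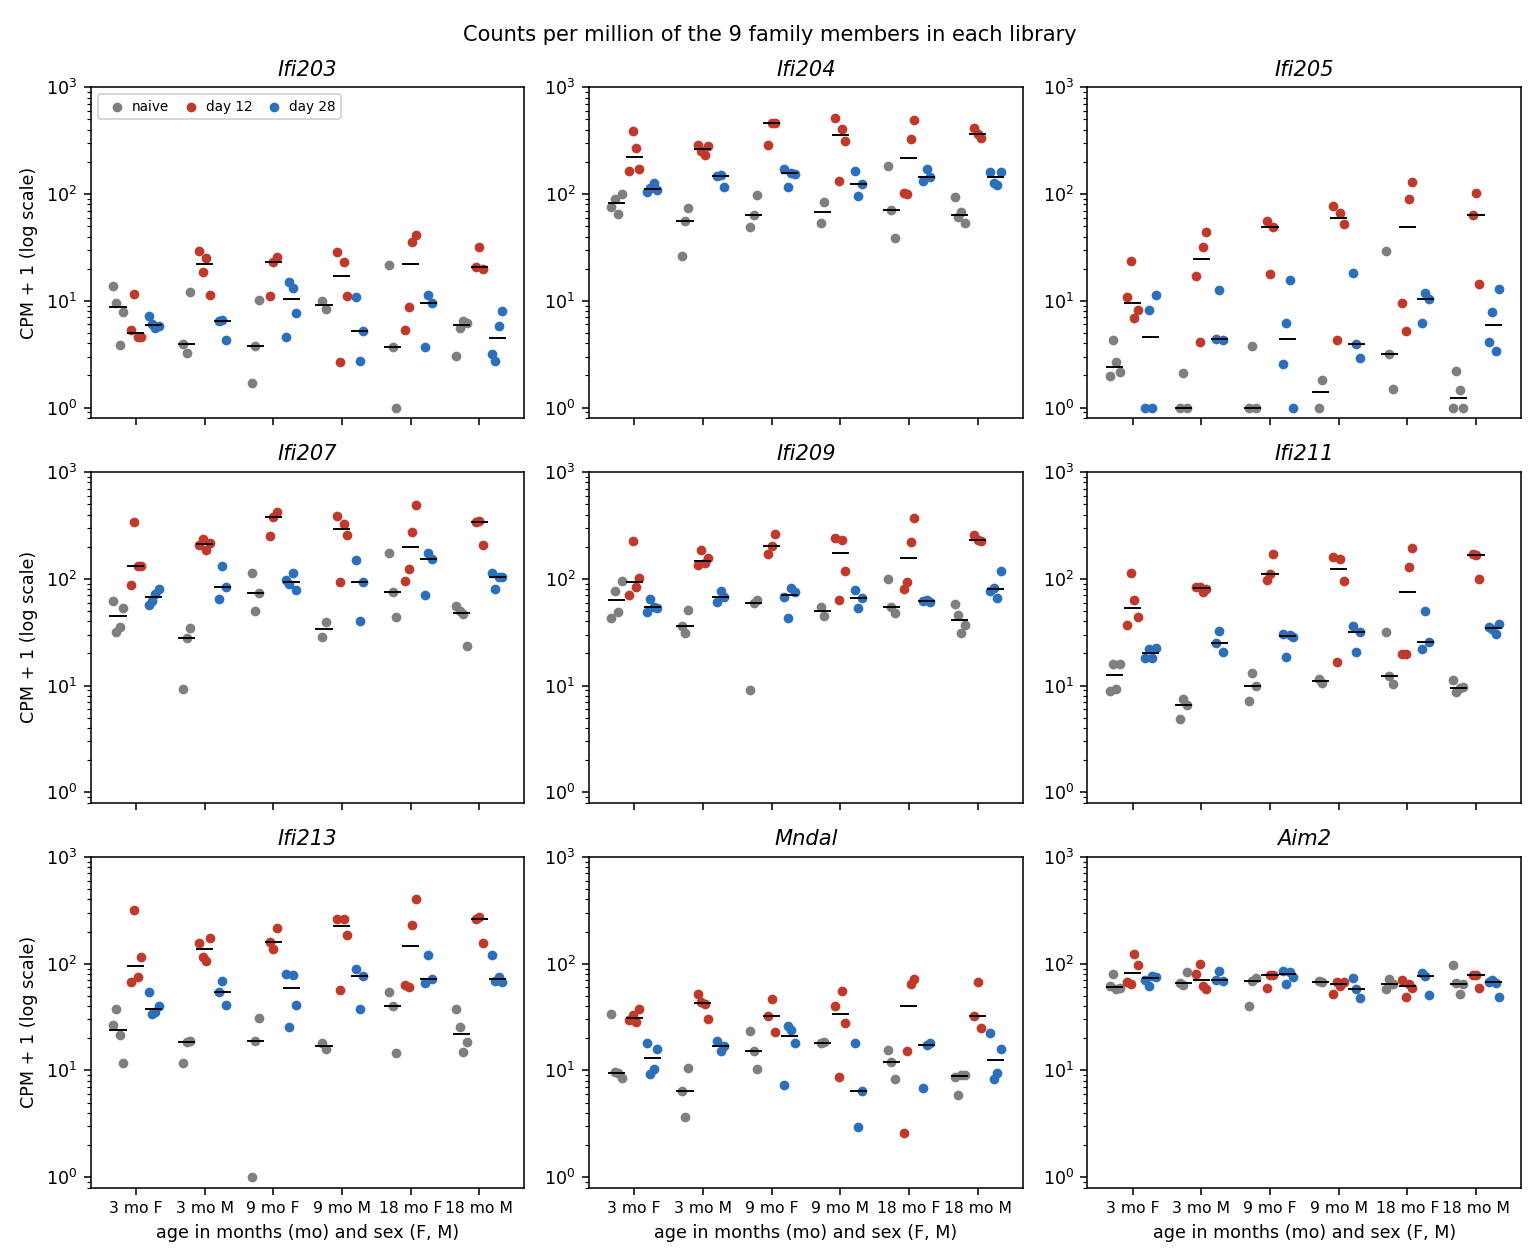
Level of each member in each of the 62 libraries, as CPM + 1 on a log axis, by age in months (mo) and sex (F, female; M, male), with naive in grey, day 12 in red and day 28 in blue. Each point is 1 library and the bar is the group median. *Ifi211* has a median of 8.98 CPM in naive, 95.3 CPM in day 12 and 27.3 CPM in day 28 libraries, and *Aim2* lies between 39.5 and 123 CPM throughout.

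Day 12 was compared with naive microglia within each age and sex, to ask which members change after the vector. Of 54 values (9 members in 6 comparisons), 24 passed the test, and all 24 were higher at day 12; *Aim2* passed in none, *Ifi203* in 1, and no member in 18-month-old females. A member was called by edgeR's quasi-likelihood test against a log2 fold change of 1 (glmTreat) at a Benjamini-Hochberg adjusted p under 0.05 over all genes tested. In 3-month-old females 4 members were called (*Ifi204*, *Ifi207*, *Ifi211* and *Ifi213*), where 2.43% of all genes were. In 3-month-old males 7 were called, all but *Ifi203* and *Aim2*, beside 3.77% of all genes. In 9-month-old females 3 were called (*Ifi204*, *Ifi207* and *Ifi211*), beside 2.52% of all genes, and in 9-month-old males 2 (*Ifi205* and *Ifi213*), beside 0.954%. In 18-month-old males all members but *Aim2* were called, 8 of 9, beside 4.16% of all genes. In 18-month-old females edgeR called 0 members and 0% of all genes. There 3 members, and 485 of the 11159 genes tested, had an unadjusted p under 0.05, and DESeq2 also called 0 members.

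The median log2 fold change of the 9 members at day 12 was 1.74 in 3-month-old females, 2.94 in 3-month-old males, 2.2 in 9-month-old females, 2.47 in 9-month-old males, 1.83 in 18-month-old females and 2.72 in 18-month-old males. Over all genes tested it was between -0.01 and 0.11. A plain quasi-likelihood test, with no minimum fold change built in, at an adjusted p under 0.05 and a log2 fold change over 1, called 33 of the 54 values, beside 9.54%, 10%, 8.26%, 2.24%, 0% and 11.3% of all genes in the same order of comparisons. Within the collection days, on uncorrected counts, the median of the 8 members other than *Aim2* was above 1 on both days in every comparison but that of 18-month-old females: 1.16 and 2.32 in 3-month-old females, 3.45 and 3.20 in 3-month-old males, 3.56 and 2.39 in 9-month-old females, 2.54 and 2.83 in 9-month-old males, and 2.60 and 3.21 in 18-month-old males, for collection days 1 and 2. Each of these medians rests on 1 to 3 day 12 and 1 or 2 naive libraries. Those of 9-month-old females on day 1, where the naive library is the one with *Ifi213* at 0, and of 9-month-old males on day 2 compare 1 library with 1. Since these are sorted cells in bulk, a larger share of cells using a gene and more of its RNA per cell cannot be told apart.

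**Figure D2:**
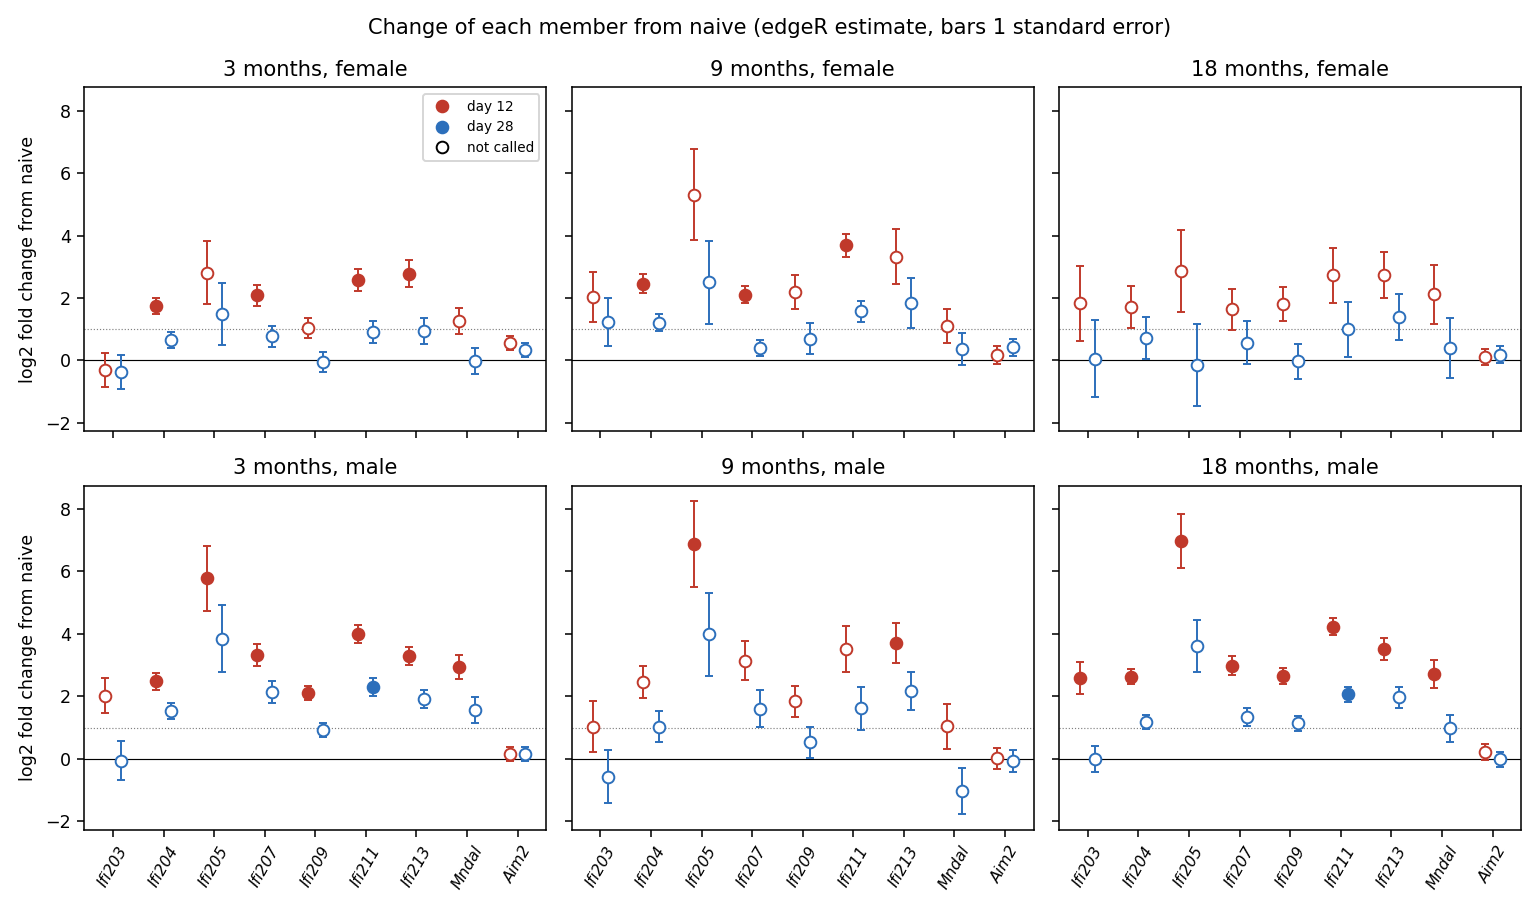
Log2 fold change of each member from naive microglia at day 12 (red) and day 28 (blue), in 6 panels by age and sex, as estimated by edgeR; bars are 1 standard error, filled points passed the test, and the dotted line marks a log2 fold change of 1. At day 12 *Ifi211* lies between 2.58 and 4.24 and *Aim2* between 0.02 and 0.57.

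*Ifi211* was called in 4 of the 6 day 12 comparisons, with log2 fold changes from 2.58 to 4.24 over the 6. In 3-month-old males it was at 3.84, 6.5 and 5.61 CPM in naive and at 83.2, 83.2, 74.7 and 79.8 CPM in day 12 libraries (log2 fold change 4.01, SE 0.28, edgeR adjusted p = 2.99e-07). In 3-month-old females it was at 7.89, 15.0, 8.38 and 15.0 CPM in naive and at 35.7, 112, 62.6 and 42.7 CPM in day 12 libraries (2.58, SE 0.35, adjusted p = 0.00122). In both sexes every day 12 library lay above every naive one. In 9-month-old females the naive libraries were at 6.23, 12.2 and 8.98 CPM and the day 12 libraries at 97.1, 110 and 169 CPM (log2 fold change 3.68, SE 0.37, edgeR adjusted p = 0.000208). In 9-month-old males the naive libraries were at 10.5 and 9.52 CPM, and the day 12 libraries at 158, 15.5, 153 and 93.5 CPM (3.52, SE 0.73, adjusted p = 0.057). Replicate 2, with high microglia markers, was the low one, and without it *Ifi211* was called. In 18-month-old males it was at 10.2, 7.70, 8.48 and 8.60 CPM in naive and at 170, 167 and 98.9 CPM in day 12 libraries (log2 fold change 4.24, SE 0.28, edgeR adjusted p = 3.71e-07).

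*Ifi204*, the relative of IFI16, had the highest CPM of the family at day 12 (98.1 to 517, median 301) and was called in 4 of the 6 comparisons, with log2 fold changes from 1.70 to 2.63. Its naive libraries were at 74.9, 88.9, 63.5 and 99.2 CPM in 3-month-old females, and the day 12 libraries at 164, 391, 272 and 169 CPM (1.74, SE 0.25, edgeR adjusted p = 0.0306). In 3-month-old males the naive libraries were at 25.3, 54.9 and 72.9 CPM and the day 12 libraries at 286, 251, 233 and 281 CPM (2.48, SE 0.26, edgeR adjusted p = 0.000154). The groups did not overlap in either sex. In 9-month-old females it was at 48.2, 62 and 97.5 CPM in naive and at 289, 465 and 463 CPM in day 12 libraries (log2 fold change 2.46, SE 0.29, edgeR adjusted p = 0.00198). In 9-month-old males it was at 52.8 and 82.3 CPM in naive and at 517, 131, 403 and 314 CPM in day 12 libraries (2.47, SE 0.52, adjusted p = 0.0967). In this comparison, too, the low day 12 value was that of replicate 2. In 18-month-old males it was at 91.9, 59.7, 66.2 and 52.4 CPM in naive and at 415, 367 and 334 CPM in day 12 libraries (log2 fold change 2.63, SE 0.24, edgeR adjusted p = 4.52e-05).

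*Ifi213* and *Ifi207* were each called in 4 of the 6 comparisons and had positive estimates in all 6. *Ifi213* had a median of 17.7 CPM in naive (0 to 52.7) and 157 CPM in day 12 libraries (55.3 to 406), with log2 fold changes from 2.74 to 3.70. In 3-month-old males its mean was 15.3 ± 4.02 CPM (SD, n = 3) in naive and 138 ± 33.2 CPM (SD, n = 4) in day 12 libraries, and in 18-month-old males 22.9 ± 9.90 CPM (SD, n = 4) and 231 ± 66.2 CPM (SD, n = 3). The naive library at 0 was replicate 1 of 9-month-old females, which also had the lowest *Ifi209* (8.08 CPM) and *Aim2* (39.5 CPM) of all libraries. In that comparison *Ifi213* was at 3.33 (SE 0.87) and did not pass the test. *Ifi207* had a median of 45.4 CPM in naive (8.37 to 174) and 242 CPM in day 12 libraries (85.9 to 495), with log2 fold changes from 1.63 to 3.33. Its means in 3-month-old males were 23.0 ± 13.1 CPM (SD, n = 3) in naive and 211 ± 19.0 CPM (SD, n = 4) in day 12 libraries. In 3-month-old females 1 day 12 library (replicate 2) was well above the other 3 in both genes, at 320 CPM for *Ifi213* and 336 CPM for *Ifi207*, against 66.7 to 115 CPM and 85.9 to 131 CPM.

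*Ifi205* was near the floor in naive microglia and had the largest fitted fold changes. It was at or under 3 counts in 9 of 19 naive, 0 of 22 day 12 and 3 of 21 day 28 libraries, with medians of 0.793, 26.8 and 5.13 CPM. In 18-month-old males it was at 0, 1.22, 0.458 and 0 CPM in naive and at 62.8, 101 and 13.4 CPM in day 12 libraries, which passed the test (edgeR adjusted p = 8.97e-05). In 3-month-old males it was at 0, 1.12 and 0 CPM in naive and at 16.1, 3.15, 31.1 and 42.8 CPM in day 12 libraries (edgeR adjusted p = 0.00337). With naive libraries this low the size of the change depends on the constant added to the counts, and the fitted log2 fold changes of 2.81 to 6.98 are not firm. In 9-month-old males, where it also passed the test, the naive libraries were at 0 and 0.793 CPM and the day 12 libraries at 76.2, 3.32, 66.0 and 50.9 CPM. Again replicate 2 was the low one.

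*Ifi209* and *Mndal* were called in 3- and 18-month-old males only, at log2 fold changes of 2.11 (SE 0.21) and 2.66 (SE 0.26) for *Ifi209* and of 2.94 (SE 0.40) and 2.72 (SE 0.46) for *Mndal*. *Mndal* is named for its likeness to the human myeloid cell nuclear differentiation antigen. In 18-month-old males *Ifi209* was at 57.2, 45, 30.0 and 35.7 CPM in naive and at 255, 232 and 227 CPM in day 12 libraries. In the other 4 comparisons the log2 fold changes ran from 1.04 to 2.2 for *Ifi209* and from 1.04 to 2.11 for *Mndal*, without passing the test. *Mndal* was at 5.43, 2.69 and 9.49 CPM in naive and at 50.6, 43.2, 40.9 and 29.2 CPM in day 12 libraries of 3-month-old males. *Ifi203* was called in 18-month-old males alone, where it was at 2.04, 4.59, 5.50 and 5.21 CPM in naive and at 19.8, 31.2 and 18.9 CPM in day 12 libraries (log2 fold change 2.58, SE 0.51, edgeR adjusted p = 0.0231). It was the only one of the 8 with a negative value in any day 12 comparison, at -0.32 (SE 0.54) in 3-month-old females. There the naive libraries were at 12.7, 8.58, 2.87 and 6.84 CPM and the day 12 libraries at 4.32, 10.5, 3.62 and 3.62 CPM, so that the groups overlapped.

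Calls moved when 1 library was left out, for example in 3-month-old females and 9-month-old males. In 3-month-old females 2 members were called instead of 4 when naive replicate 2, naive replicate 3 or day 12 replicate 2 was left out. In 9-month-old males the 2 calls became 6 without day 12 replicate 2 (*Ifi204*, *Ifi205*, *Ifi207*, *Ifi209*, *Ifi211* and *Ifi213*), and 1 without day 12 replicate 1 or 4. With either naive library left out 0 were called, but the naive group is then 1 library, assumed to vary like the other groups of the fit.

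In 18-month-old females the day 12 libraries fell apart by collection day. *Ifi211* was at 18.7 and 18.8 CPM in replicates 1 and 2 (collection day 1) and at 128 and 194 CPM in replicates 3 and 4 (collection day 2), while the naive libraries were at 30.5 CPM on day 1 (replicate 1) and at 11.4 and 9.37 CPM on day 2. *Ifi204* was at 101 and 98.1 CPM and at 327 and 496 CPM in the same order, with naive at 180 CPM and at 70.5 and 37.5 CPM. *Ifi205* was at 8.55 and 4.18 CPM and at 88.7 and 129 CPM, with naive at 28.3 CPM and at 2.18 and 0.507 CPM. On collection day 1 both day 12 libraries lay below the naive library in these 3 genes, and on day 2 both lay above the naive ones. *Mndal* was at 1.60 and 14.1 CPM at day 12 on collection day 1 and at 63.9 and 71.1 CPM on day 2. *Ifi213* was at 62.5 and 59.9 CPM and at 230 and 406 CPM, above all 3 naive libraries (52.7, 39.2 and 13.7 CPM). On uncorrected counts, 1 of the 8 members was higher than naive on collection day 1 (median log2 difference -0.69, 2 libraries against 1) and 8 of 8 on day 2 (median 3.71, 2 against 2).

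The markers moved with this split. The summed microglia markers were at 33945 and 28566 CPM in day 12 replicates 1 and 2 and at 12501 and 12707 CPM in replicates 3 and 4, against 30278 to 35830 CPM in the 3 naive libraries. The summed T cell markers were at 1.60 and 13.1 CPM and at 328 and 191 CPM, and the summed monocyte markers at 10.7 and 7.98 CPM and at 157 and 955 CPM, in the same order. Naive replicate 1, the naive library with high *Ifi204*, *Ifi205* and *Ifi211*, had 157 CPM of monocyte markers, against 5.17 and 29.9 CPM in the other 2. The highest monocyte sums were mostly 1 gene, *Plac8*, which reached 115 CPM in naive and 857 CPM in day 12 libraries. Without the 3 day 12 libraries of high microglia markers, a choice made after their values were seen, 31 members were called over the 6 comparisons instead of 24, with 3 in 18-month-old females (*Ifi209*, *Ifi211* and *Ifi213*). The share of all genes called rose as well, from 0% to 1.08% in 18-month-old females and from 0.954% to 2.83% in 9-month-old males. Both day 12 libraries of collection day 1 thus lay near the naive libraries in microglia and T cell markers. Whether their labels, and that of naive replicate 1, are right was not tested. Nor was the part of collection day and of cell makeup in the split. Every day 12 value of 18-month-old females rests on these labels. The changes from naive at day 28 in these mice rest in part on the label of naive replicate 1.

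**Figure D3:**
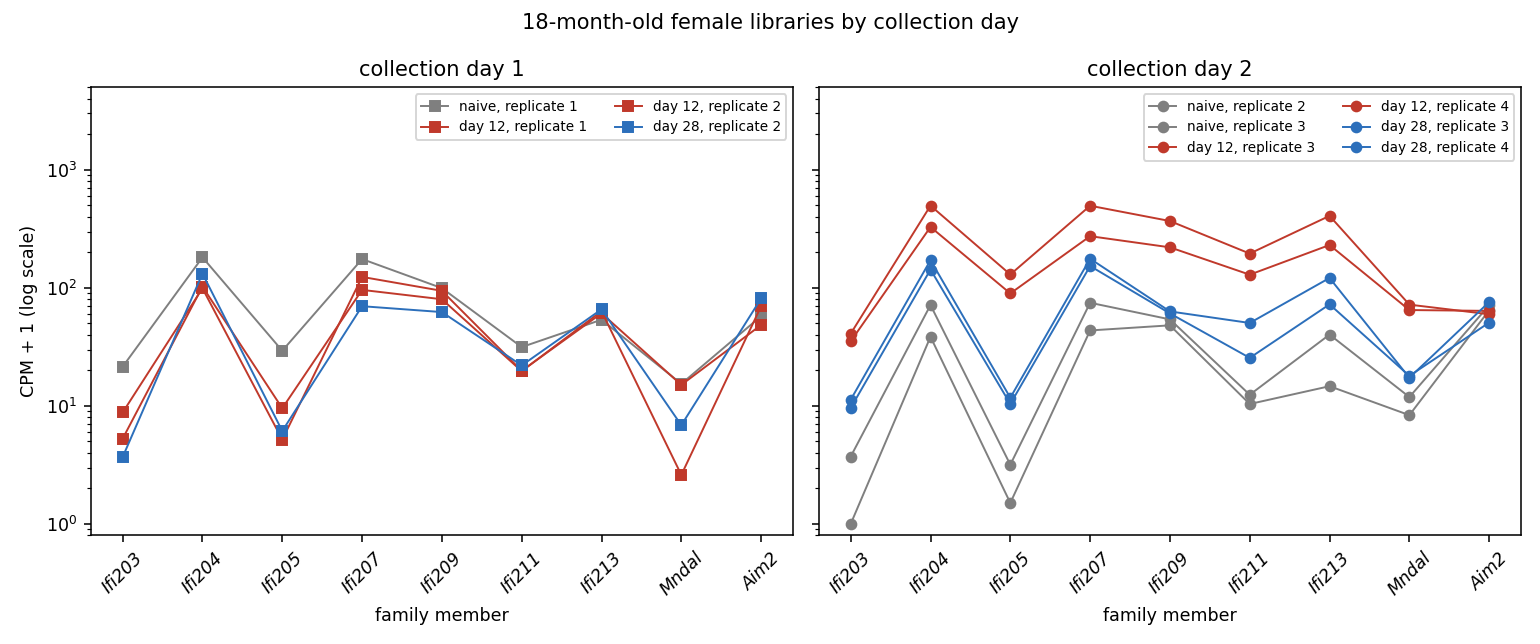
CPM + 1 (log axis) of the 9 members in each 18-month-old female library, with collection day 1 on the left and collection day 2 on the right; each line is 1 library, naive in grey, day 12 in red and day 28 in blue. On the left the 2 day 12 libraries lie near or below the naive one (*Ifi211* at 18.7 and 18.8 against 30.5 CPM), and on the right they lie above it (128 and 194 against 11.4 and 9.37 CPM).

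By day 28 the median level of every member but *Ifi203* and *Aim2* lay between those of naive and day 12 libraries, and few members passed the test. Against naive microglia 2 of 54 values were called, both of *Ifi211* and both higher, in 3-month-old males (log2 fold change 2.31, SE 0.29, edgeR adjusted p = 0.0048) and in 18-month-old males (2.06, SE 0.26, adjusted p = 0.0129). Of all genes, 0.701% and 0.684% were called in these comparisons. In the other 4, where 0 members were called, 0.44% (3-month-old females), 0.461% (9-month-old females), 0.129% (9-month-old males) and 0% (18-month-old females) of all genes were. An unadjusted p under 0.05 was seen for 13 of the 54 values, beside 312 to 435 of the 11124 to 11630 genes tested in each comparison. DESeq2 called 2. *Ifi211* was at 23.8, 31.2 and 19.5 CPM at day 28 in 3-month-old males and at 34.7, 33.1, 29.7 and 37.0 CPM in 18-month-old males, above every naive library of the same group. The call in 18-month-old males was lost without naive replicate 2 or with the library of 2 day labels taken as day 12, and both calls were lost in 1 fit of all groups.

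The levels at day 28 were still above naive for several members that did not pass. *Ifi207* in 3-month-old males was at 8.37, 27.1 and 33.6 CPM in naive and at 63.3, 131 and 82.7 CPM in day 28 libraries (2.14, SE 0.35, edgeR adjusted p = 0.0575). *Ifi213* in the same mice was at 10.6, 17.5 and 17.7 CPM in naive and at 53.8, 68.3 and 40.0 CPM in day 28 libraries (1.92, SE 0.28, adjusted p = 0.0613). In both the groups did not overlap. The plain quasi-likelihood test called 11 of the 54, beside 2.36%, 2.03%, 0.949%, 0.206%, 0% and 2.31% of all genes in that order. *Ifi204*, *Ifi207*, *Ifi211* and *Ifi213* had positive estimates in all 6 comparisons, from 0.66 to 1.53, 0.41 to 2.14, 0.91 to 2.31 and 0.95 to 2.17. *Ifi203* was between -0.56 and 1.22, and *Mndal* between -1.03 and 1.56. The median log2 fold change of the 9 members at day 28 ran from 0.40 in 18-month-old females to 1.56 in 3-month-old males. In 18-month-old females this change, too, split by collection day. On uncorrected counts, 1 of the 8 members other than *Aim2* was above naive on collection day 1 (median log2 difference -0.89, 1 library against 1). On day 2 it was 8 of 8 (median 1.88, 2 against 2). *Ifi204*, *Ifi207* and *Ifi211* were at -0.48, -1.22 and -0.53 on day 1, and *Ifi213* was at 0.29.

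Compared directly, day 28 was below day 12 for each of the 8 members other than *Aim2* in all 6 age and sex groups by the sign of the estimate, and 1 of 54 values passed the test. This was *Ifi211* in 18-month-old males, which fell by 2.17 on the log2 scale (SE 0.25, edgeR adjusted p = 0.0112), beside 0.86% of all genes, and the call was lost without day 12 replicate 1 or 2, on raw counts, in 1 fit of all groups, and with the library of 2 day labels taken as day 12. In the other 5 comparisons 0 members were called, beside 0.117% (3-month-old females), 0.395% (3-month-old males), 0.381% (9-month-old females), 0% (9-month-old males) and 0% (18-month-old females) of all genes. An unadjusted p under 0.05 was seen for 23 values, beside 119 to 597 of the 11124 to 11630 genes tested in each comparison. DESeq2 called 1. *Ifi205* was lower at day 28 by 3.36 (SE 0.67, edgeR adjusted p = 0.0551) and *Ifi203* by 2.58 (SE 0.51, adjusted p = 0.0703) in 18-month-old males, without passing. The plain quasi-likelihood test called 20 of the 54, beside 1.24%, 2.35%, 2.41%, 0%, 0% and 3.91% of all genes in the same order. These comparisons share their libraries with those against naive.

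*Aim2*, the inflammasome sensor, did not follow the other members. It had a median of 64.3 CPM in 19 naive (39.5 to 95.3), 66.2 CPM in 22 day 12 (47.5 to 123) and 68.8 CPM in 21 day 28 libraries (46.7 to 85.2), so that the days overlapped. In 3-month-old females, where its day 12 estimate was largest, it was at 61.0, 78.2, 57.2 and 57.5 CPM in naive and at 65.9, 63.7, 123 and 97.1 CPM in day 12 libraries. The log2 fold change there was 0.57 (SE 0.22), with a 95% interval that lay wholly above no change. Over the 6 day 12 comparisons it ran from 0.02 to 0.57, and the 95% intervals reached from -0.69 at the lowest to 1.04 at the highest. At day 28 it ran from -0.08 to 0.43, with intervals that reached from -0.83 to 1.01. The 3 day 12 libraries with high microglia markers were at 66.4, 68.9 and 47.5 CPM, the last being the lowest of the 22 day 12 libraries. A p that misses the threshold does not show that *Aim2* stayed the same, and these bounds give the largest increase and decrease the intervals allow.

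Ages were compared within each sex and day, to ask whether members differ between young and old microglia. None of 159 values passed edgeR's quasi-likelihood test at an adjusted p under 0.1, where 0% to 0.698% of all genes did. In females the share was 0% in the 3 naive comparisons, 0.42%, 0.0625% and 0.116% at day 12 and 0.0177%, 0.698% and 0.0177% at day 28, for 9 against 3, 18 against 3 and 18 against 9 months, and in males it was 0.0605% for naive and 0.00901% for day 28 mice of 18 against 3 months and 0% in the others. An unadjusted p under 0.05 was seen for 11 of them, beside 191 to 1474 of the 11101 to 11566 genes tested in each comparison. DESeq2 called 3. The smallest adjusted p was that of *Ifi207* at day 28 in females, 18 against 3 months. It was at 68.9, 175 and 152 CPM at 18 months and at 55.7, 61.4, 70.7 and 79.2 CPM at 3 months (log2 difference 0.96, SE 0.26, edgeR adjusted p = 0.134). In the same comparison *Ifi213* was at 64.8, 120 and 71.5 CPM and at 52.9, 32.6, 34.5 and 38.8 CPM (1.07, SE 0.31, adjusted p = 0.171). The 2 groups overlapped in *Ifi207* and not in *Ifi213*, and these were 2 of the 3 values that DESeq2 called. The third was *Ifi203* at day 12 in females, at 4.27, 7.79, 34.2 and 39.9 CPM at 18 months and at 4.32, 10.5, 3.62 and 3.62 CPM at 3 months (2.16, SE 0.65, edgeR adjusted p = 0.208). Without the 3 day 12 libraries of high microglia markers 7 values were called, all in females at day 12 and all higher than at 3 months: *Ifi203* and *Ifi205* at 9 months, and *Ifi203*, *Ifi205*, *Ifi209*, *Ifi211* and *Mndal* at 18 months. The share of all genes called rose with them, from 0.42% to 3.37% at 9 months and from 0.0625% to 5.04% at 18 months. That choice drops the 18-month-old female libraries in which the family was low. It drops no female library of 3 or 9 months. The 3 ages shared 1 fit, so it also changed the spread against which 9 and 3 months were compared.

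Between the sexes at one age and day, 0 of 81 values passed the same test, beside 0.0404% to 0.1% of all genes. An unadjusted p under 0.05 was seen for 8, beside 260 to 1214 of the 11907 to 12364 genes tested in each comparison. DESeq2 called 1. That value was *Ifi203* at day 12 in 3-month-old mice, at 28.0, 17.6, 24.1 and 10.3 CPM in males and at 4.32, 10.5, 3.62 and 3.62 CPM in females (log2 difference 1.90, SE 0.52, edgeR adjusted p = 0.291). The lowest male library lay just below the highest female one. Of the 8 values, 4 were of naive 3-month-old mice, in which *Ifi204*, *Ifi207*, *Ifi211* and *Mndal* were lower in males. *Ifi211*, for example, was at 3.84, 6.5 and 5.61 CPM in naive males and at 7.89, 15.0, 8.38 and 15.0 CPM in naive females (-1.0, SE 0.36, adjusted p = 0.357).

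The change from naive was then compared between sexes and between ages. At 3 months all 8 members other than *Aim2* had a larger day 12 estimate in males, by 0.49 to 2.98 on the log2 scale, but none of the 54 tests of sex by day passed (edgeR, smallest adjusted p = 0.38, *Ifi203*), where 0% to 0.0583% of all genes did. An unadjusted p under 0.05 was seen for 12, beside 541 to 1126 of the 11907 to 12364 genes tested in each comparison. DESeq2 called 0. For *Ifi203* the day 12 change was larger in males by 2.32 (SE 0.77) at 3 months. Of 72 tests of age by day 0 passed, beside 0% to 0.695% of all genes, and DESeq2 called 0. An unadjusted p under 0.05 was seen for 4, beside 331 to 1750 of the 11980 to 12304 genes tested in each comparison. The smallest adjusted p was 0.34, of *Ifi203* in females at day 12, 9 against 3 months (2.35, SE 0.94). The different numbers of members called in males and females, or at 3 and 9 months, are thus not shown to be differences between them.

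Across libraries the 8 members other than *Aim2* varied together. As a description, the Pearson correlation of log2 CPM over 62 libraries had a median of 0.785 for the 28 pairs among them (0.548 to 0.969, the highest for *Ifi204* and *Ifi211*, which share sequence). For *Aim2* with each of the 8, it had a median of 0.232 (0.105 to 0.387). After the mean of each group was taken off, the medians were 0.637 and 0.0978. The libraries share depth, collection day and cell makeup, and genes such as *Ifi211* and *Ifi205* share reads. Outside the family, of 13572 genes, those whose pattern was among the 5 most like the mean of the 9 standardised members included *Slfn1* (0.931), *Gbp2* (0.930), *Irgm1* (0.911) and *Ccl2* (0.911). *Gbp2*, a guanylate-binding protein, had a median of 14.8 CPM in naive, 663 CPM in day 12 and 73.9 CPM in day 28 libraries. *Ccl2*, a chemokine that draws monocytes, had medians of 47.9, 476 and 164 CPM. Those most like *Aim2* were *Rad50* (0.661), a subunit of the DNA break repair complex MRN, *Shprh* (0.641) and *Dusp19* (0.62).

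**Figure D4:**
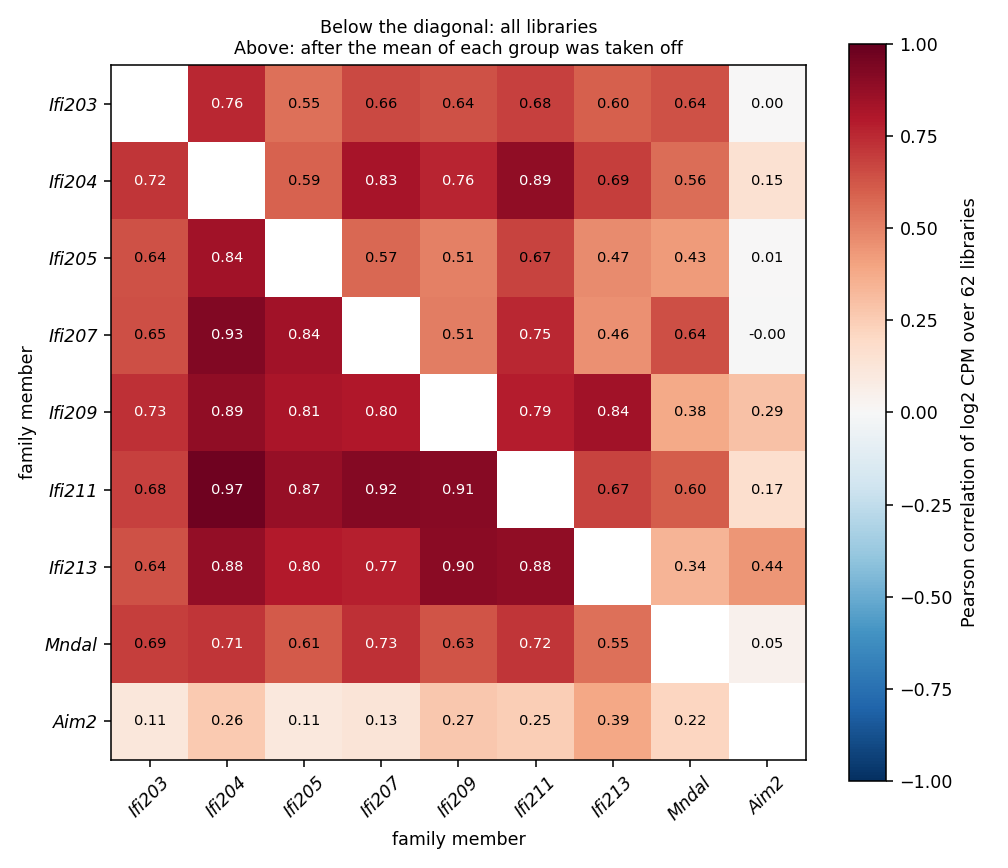
Pearson correlations of log2 CPM between the members over 62 libraries, below the diagonal over all libraries and above it after the mean of each group was taken off. The 8 members other than *Aim2* form a block with a median of 0.785 (0.637 with group means off), and the row of *Aim2* has a median of 0.232 (0.0978).

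Of the family genes that are not members, *Ifi206* was called higher in 4 of the 12 comparisons with naive, all at day 12, with log2 fold changes of 2.54 (SE 0.43) in 3-month-old females, 2.60 (SE 0.29) in 3-month-old males, 2.27 (SE 0.40) in 9-month-old females and 3.69 (SE 0.35) in 18-month-old males. *Ifi208* was called in 1, at day 12 in 18-month-old males (3.45, SE 0.78), and *Ifi214* in 0 of 12. *Ifi202b* was too low to be tested: it was at 0 in every group but 3-month-old males at day 28, where the highest library had 0.484 CPM.

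Inflammasome genes, including another sensor, caspases, cytokines and cytokine inhibitors, were taken as a list of 9. At day 12 the list had 2 genes called in 3-month-old females, 2 in 3-month-old males, 3 in 9-month-old females, 2 in 9-month-old males, 0 in 18-month-old females and 2 in 18-month-old males, all higher, with list medians of 0.66 to 0.93 on the log2 scale. Of all genes, 2.43%, 3.77%, 2.52%, 0.954%, 0% and 4.16% were called in these comparisons, and all of the list's calls but that of *Casp4* were of *Il18bp* and *Il1rn*. *Il18bp*, which encodes the soluble inhibitor of IL-18, was called in 9 of the 12 comparisons with naive. In 3-month-old males it was at 4.26 to 9.49 CPM in naive and 430 to 677 CPM in day 12 libraries. *Il1rn*, which encodes the IL-1 receptor antagonist, was called in 8. In 9-month-old females it was at 0 CPM in all 3 naive and 28.0 to 103 CPM in day 12 libraries. Both products are known to restrain cytokines of the IL-1 family rather than to build the inflammasome. *Casp4*, an inflammatory caspase, was called in 1 comparison, at day 12 in 9-month-old females (2.54, SE 0.50). *Il1b*, *Pycard*, *Nlrp3*, *Casp1*, *Il18* and *Gsdmd* were called in 0 of 12, although *Il1b* had positive estimates throughout, for example 3.03 (SE 0.90) at day 12 in 9-month-old females.

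Other DNA sensing genes formed a list of 14, of which 13 were tested. It had 2, 4, 3, 1, 0 and 4 genes called higher at day 12 in the order of comparisons used above, beside the same shares of all genes (2.43%, 3.77%, 2.52%, 0.954%, 0% and 4.16%), and 0 lower, with list medians of 0.12 to 0.59. *Ikbke*, a kinase related to *Tbk1*, was called in 9 of 12. It was at 0 CPM in all naive and at 17.6 to 125 CPM in day 12 libraries of 3-month-old females. *Zbp1*, a sensor of Z-form nucleic acid, was called in 5. It was at 5.17 to 12.7 CPM in naive and 187 to 302 CPM in day 12 libraries of 3-month-old males. *Samhd1* was called in 3 and *Irf7* in 2, whereas the other 9 tested genes, among them *Cgas*, *Sting1*, *Tlr9*, *Irf3* and *Tbk1*, were called in 0. A gene not called may still have changed. *Cgas* in 3-month-old males was at 97.4 to 119 CPM in naive and at 45.4 to 60.7 CPM in day 12 libraries. Its mean at day 12 was below naive in 3-month-old mice and 9-month-old females, and above it in 9-month-old males and 18-month-old mice. Among interferon signalling genes, *Stat2* was called in 4 and *Irf1* in 3 of the 12, all higher, while *Jak1*, *Jak2*, *Tyk2*, *Irf8*, *Irf9*, *Ifnar1*, *Ifnar2*, *Ifngr1* and *Ifngr2* were called in 0. Of all genes, 0% to 4.16% were called in the comparisons of day 12 with naive and 0% to 0.701% in those of day 28. *Ifng*, tested in 4 comparisons and called in none, was at 0 to 17.0 CPM in day 12 libraries and 0 to 43.8 CPM in day 28 libraries.

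Markers of other cells also moved with the days. The summed microglia markers had a median of 34196 CPM in naive, 14750 CPM in day 12 and 22422 CPM in day 28 libraries. The 7 T cell markers measured summed to a median of 1.29 CPM in naive (0 to 161), 122 CPM in day 12 (1.60 to 347) and 71.3 CPM in day 28 libraries (17.6 to 170). The 7 monocyte markers were at 13.6 CPM (0.226 to 157), 59.3 CPM (4.40 to 955) and 8.72 CPM (0.265 to 54.3). This sum rests on few genes, as *S100a9* and *Chil3* were at 0 in every naive and day 28 library. The medians were 89.9, 46.2 and 55.2 CPM for B cell markers and 1729, 735 and 1343 CPM for photoreceptor markers. The part of these cells in the levels of the family was not tested.

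**Figure D5:**
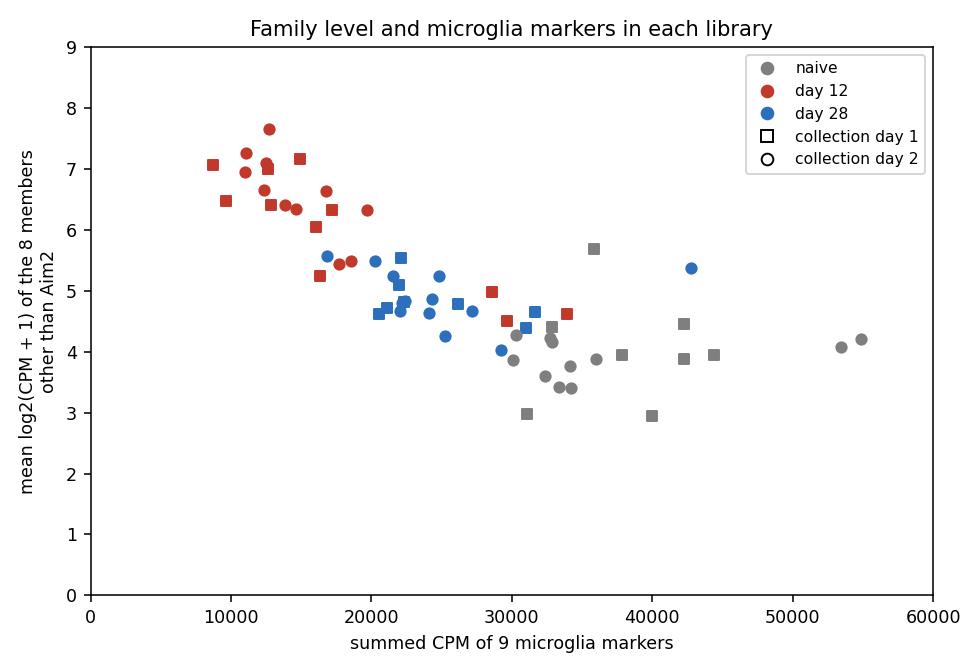
Mean log2(CPM + 1) of the 8 members other than *Aim2* against the summed CPM of 9 microglia markers, 1 point per library, with naive in grey, day 12 in red and day 28 in blue, squares for collection day 1 and circles for collection day 2. The 3 day 12 squares to the right of 25000 CPM are the libraries that stood apart, and the blue circle at 42777 CPM is the library with 2 day labels.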

How the data were processed

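The authors sequenced SMART-Seq v4 libraries as single 75-base reads, demultiplexed them with bcl2fastq 2.20, aligned them to mm10 with STAR 2.7.8a (versions per the submitters' processing notes), counted reads per gene with featureCounts and the UCSC refGene annotation, and adjusted the counts for collection day with ComBat_seq. The deposited counts, raw and adjusted, are whole numbers. The adjusted table was used, the raw one as an alternative. Of 64 labelled libraries, 63 are in the adjusted table; 1, labelled as an 18-month-old female at day 28, was left out because its sex-linked genes went against that label, and 62 were used. Depth is given with the results, and no interval is given for single-library CPM values.

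CPM was count over library total. Day comparisons used edgeR 4.0.16 (R 4.3.3) with TMM scaling, genes filtered by filterByExpr, and glmTreat against a log2 fold change of 1 at an adjusted p under 0.05, in 1 fit of the 3 days per age and sex. Ages, sexes and interactions used glmQLFTest at an adjusted p under 0.1. P-values were adjusted over all 11124 to 11630 genes of a day comparison, and likewise elsewhere. Each library is 1 retina, and p-values measure the spread between these libraries. Scripts were tested on simulated data. Alternatives were DESeq2 1.42.0, its size factors, no filter on low counts, raw counts, collection day or replicate number as a term, 1 fit of all groups, a test without the fold change minimum, day 12 for the library with 2 day labels, and leaving out each library. Leaving out 3 day 12 libraries, and fitting 2 ages together, were added after the data were seen. For DESeq2 only calls of members were counted, so no share of all genes stands beside them.

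Named genes outside the family were the 5 most correlated with the mean of the 9 standardised members, the 3 most correlated with *Aim2*, and the genes of fixed lists in order of calls, of which 1 gene is not reported here. The members and lists were chosen with earlier results of these data known.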

Additional observations from a re-analysis of the deposited data

Results flagged for a closer look

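Of 81 tests for a library far from the others of its group (gap to the nearest library over the group's range, Dixon's 95% value, groups of 4 libraries), 6 passed, where chance gives about 1 in 20. In 3-month-old females, *Mndal* was at 32.8 CPM in naive replicate 1 and at 7.5 to 8.58 CPM in the other 3. *Ifi203* was at 10.5 CPM in day 12 replicate 2 of 3-month-old females and at 3.62 to 4.32 CPM in the others. *Ifi211* was at 17.5 CPM in day 28 replicate 2 of 9-month-old females and at 27.3 to 29.3 CPM in the others. In 18-month-old males, *Mndal* was at 4.86 CPM in naive replicate 2, against 7.66 to 8.08 CPM, and *Ifi213* at 121 CPM in day 28 replicate 1, against 65.7 to 74.3 CPM. *Aim2* was at 47.8 CPM in day 28 replicate 4 of 18-month-old males, the library with 2 day labels, and at 65.5 to 68.8 CPM in the others.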

How the results depend on the processing

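The count of members called at day 12 stayed within 1.5 times of 24 under every alternative run (20 to 33, and 22 to 28 with 1 library left out). Against naive at day 28 (2 called) it was 8 with no filter, 4 with collection day in the model, 4 with the replicate block, 1 with the library of 2 day labels at day 12, 0 in 1 fit of all groups, 11 with no fold change minimum, and 1 to 4 with 1 library left out. For day 28 against day 12 (1 called) it was 5 with no filter, 0 on raw counts, 2 with collection day, 0 with that library at day 12, 0 in 1 fit, 20 with no minimum, and 0 to 3 with 1 left out. For ages (0 called) it was 3 with DESeq2, 4 with no filter, 1 with collection day, 1 with the replicate block, 7 without the 3 libraries, 1 with 2 ages in one fit, and 0 to 1 with 1 left out. For sexes (0) it was 1 with DESeq2 and 2 with no filter, for sex by day (0) 2 with no filter and 0 to 2 with 1 left out, and for age by day (0) 1 with no filter and 0 to 1 with 1 left out.

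Same-numbered libraries did not deviate together (mean correlation -0.0148 over 464 pairs, 5.82% over 0.1), so the numbers are no pairing; as a block they gave 20 calls at day 12.

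Signs turned only for estimates near 0 or with wide errors, none of them called. At day 12, *Ifi203* in 3-month-old females (-0.32) was 0.12 on raw counts and -0.87 to 0.013 with 1 library left out. *Aim2* was -0.083 in 3-month-old males on raw counts (0.16), -0.094 to 0.32 in 9-month-old females with 1 left out (0.16), and in 9-month-old males (0.02) -0.067 on raw counts, -0.085 with the block, -0.0062 in 1 fit and -0.10 to 0.12 with 1 left out. At day 28 in 3-month-old mice, *Ifi209* in females (-0.05) was 0.0093 with the block and -0.22 to 0.15 with 1 left out, *Mndal* in females (-0.01) was 0.19 on raw counts, 0.19 with collection day, 0.13 with the block and -0.24 to 0.78 with 1 left out, and *Ifi203* in males (-0.06) was 0.14 with the block and -0.46 to 0.91 with 1 left out. *Aim2* in 9-month-old males (-0.08) was 0.026 on raw counts and -0.19 to 0.0032 with 1 left out. In 18-month-old females, *Ifi203* (0.06) was -0.037 with DESeq2, -0.0021 with size factors, -0.11 with collection day and -0.54 to 2.53 with 1 left out, *Ifi205* (-0.13) was 0.30 with the block and -0.72 to 2.74 with 1 left out, *Ifi209* (-0.02) was -0.20 to 0.37 with 1 left out, and *Mndal* (0.40) was -0.98 with the block. In 18-month-old males, *Ifi203* (0.000875) was -0.011 with DESeq2, -0.0091 with size factors, -0.0066 with no filter, -0.084 with collection day, -0.10 with the block, -0.43 with the library of 2 day labels at day 12, -0.020 in 1 fit and -0.43 to 0.25 with 1 left out, and *Aim2* (-0.02) was 0.10 with that library at day 12 and -0.13 to 0.16 with 1 left out. The causes were not tested. At this depth *Ifi205* was at or under 3 counts in 9 of 19 naive libraries, which limits its fold changes.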
